A study of Homo sapiens with 10 samples.

Results

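SW620 is an established human colon cancer cell line. In the samples described here, SW620 cells that had formed metastases in balb/c nude mice were taken out and grown in culture, and RNA from these derivatives was hybridised to Affymetrix HG1.0ST expression arrays. The comparison is between the 3 arrays of lung metastasis derivatives and the 3 arrays of liver metastasis derivatives, chosen by their titles, which are 6 of the 10 arrays of the series. The other 4 arrays hold the parental line, which serves here as the reference level. All groups were labelled SW620 and balb/c and were kept in DMEM medium with 5% serum, with no drug or gene modification named. The labels call the arrays biological replicates but do not say whether they are separate metastases, mice or cultures, so p-values measure only the spread between these arrays. A nude mouse lacks T cells, so growth in it is not tested by adaptive immunity, and cells regrown in culture no longer see the organ they came from.

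Tumour cells that leave the colon reach the liver through the portal vein and the lung through the venous circulation, and derivatives grown out of each organ are a standard way to look for traits that accompany growth at one site. Epithelial genes (keratins, junction proteins, trafficking GTPases), proteases that cut the matrix, adhesion receptors and secreted growth factors are the classes most often followed in such lines. In a bulk measurement such as this fewer cells of a type and less RNA per cell cannot be told apart.

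Each value is the mean log2 expression of all array rows of a gene, over 4713 genes with a single symbol, of which 4660 lie on chromosomes 1, 10, 11 and 12. A difference of 1 log2 unit is a 2-fold change. A gene was called where limma's moderated test gave an adjusted p (Benjamini-Hochberg over the 4713 genes) below 0.05. Parental replicate 4 stood apart from parental replicates 1 to 3 on the first 2 principal components (44.6% and 25.6% of the variance): on the second it scored 12.92 against 2.05 to 2.87, and on the first it scored -1.68 against -13.06 to -9.41, with the lung arrays at 9.5 to 13.25 and the liver arrays at -0.58 to 0.37. On the first it thus lay nearest the liver arrays, and on the second the lung arrays (1.48 to 4.16) lay nearer parental replicates 1 to 3, with the liver arrays at -10.1 to -8.91. The labels name no batch. Because the lung arrays and parental replicate 4 may form a shared array set, each lung minus liver difference is given beside the difference of parental replicate 4 from the mean of parental replicates 1 to 3, called the parental 4 difference below. It is taken between arrays of 1 label and so involves no organ. A second limma fit took the set as a term, and its value is the lung minus liver difference less the parental 4 difference.

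Lung and liver derivatives differed in 937 of 4713 genes (19.9%), of which 378 were higher in lung (8.02%) and 559 lower (11.9%). The differences were small: the median size of a called difference was 0.37 log2 units, and 13 genes differed by at least 1 unit, 8 higher and 5 lower. In 930 of the 937 genes every lung array lay outside the range of the liver arrays, against 46% of all genes tested. The parental 4 difference had the same sign as lung minus liver in 845 of the 937 called genes (90.2%), and in 74.5% of all genes. It was at least 0.5 times the lung minus liver difference in 486 called genes, and in 231 it was under 0.25 times or pointed the other way. With the array set as a term, limma called 4 genes (0.0849%), and 454 had an unadjusted p under 0.05, against 1816 in the fit without it. In that fit the term is estimated within the parental arrays, with parental replicate 4 alone on 1 side, and errors are larger (for RAB25 0.13 against 0.08), so a lost call does not show a smaller difference. Row by row, 6778 of 54806 were called (12.4%), and 34 with the set term (0.062%). The part of the array set in these differences was not tested.

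The count of 937 changed strongly when single arrays were left out. It fell to 31 without liver replicate 2, to 174 without liver replicate 3, to 188 without lung replicate 1, to 364 without liver replicate 1 and to 602 without lung replicate 3, and rose to 1523 without parental replicate 4. The balance of directions moved with scaling: 40.3% of called genes were higher in lung in the values as deposited, 54.7% after quantile normalization, 54.2% after median centring and 64.0% when the brightest row stood for each gene. Within-group spread was larger in the lung arrays, with a median SD over genes of 0.10, than in the liver arrays (0.07). Of the 115 called genes named in the rule-based and added selections, 19 were called in every fit that left out 1 array, and 96 lost the call without liver replicate 2. In that fit F5, NELL2 and NBPF1 shared a limma adjusted p of 0.0552, just over the threshold. Leaving out any 1 array, their differences lay at 0.51 to 0.70, -1.49 to -0.97 and -1.51 to -1.24. A lost call thus does not by itself show a smaller difference.

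**Figure D1:**
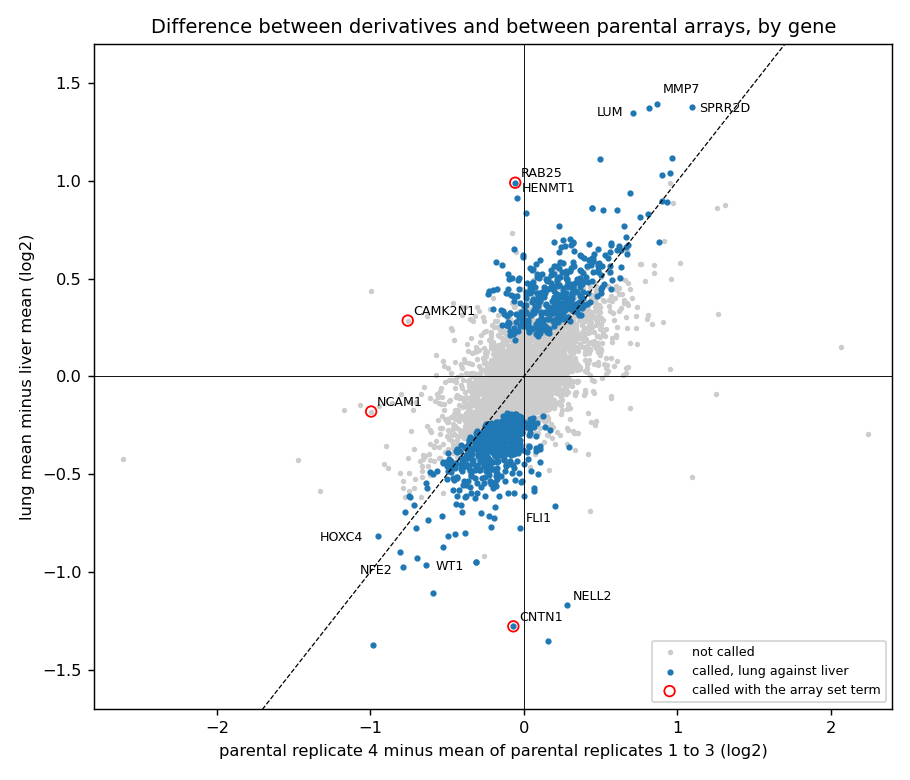
Each point is 1 of 4713 genes, with lung mean minus liver mean (log2, vertical) against parental replicate 4 minus the mean of parental replicates 1 to 3 (log2, horizontal); blue points were called between lung and liver, red rings mark the 4 genes called with the array set term, and the dashed line marks equal values. Most blue points lie in the upper right and lower left, where both differences have the same sign, while RAB25 and CNTN1 lie near 0 on the horizontal axis.

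RAB25 and CNTN1 were called in both fits, and they moved in opposite directions. RAB25, a small GTPase that returns receptors and integrins from recycling endosomes to the surface of epithelial cells, was higher in lung derivatives. CNTN1 (contactin 1), a cell adhesion protein of the immunoglobulin family held to the membrane by a lipid anchor and best known from neurons, was higher in liver derivatives. RAB25 lies on chromosome 1 and CNTN1 on chromosome 12. The 250 bases before each annotated start (RefSeq, GRCh38.p14) are shown because these are the genes on which both fits rest. RAB25 is at chr1:156060910-156061159 and CNTN1 at chr12:40827934-40828183, both on the plus strand. Capitals mark a match to the E-box CACCTG, the motif bound by the SNAI and ZEB repressors of epithelial genes.
RAB25: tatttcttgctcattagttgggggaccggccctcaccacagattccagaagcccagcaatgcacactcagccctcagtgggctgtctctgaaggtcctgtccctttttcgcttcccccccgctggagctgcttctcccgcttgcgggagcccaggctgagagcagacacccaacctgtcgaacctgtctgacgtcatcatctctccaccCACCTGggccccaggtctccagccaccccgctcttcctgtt
CNTN1: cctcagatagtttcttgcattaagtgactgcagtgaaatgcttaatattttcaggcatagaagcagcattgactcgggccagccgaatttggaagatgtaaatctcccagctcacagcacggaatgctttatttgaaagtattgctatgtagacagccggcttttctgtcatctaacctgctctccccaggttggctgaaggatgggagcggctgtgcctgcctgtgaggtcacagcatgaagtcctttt
The RAB25 stretch is 60.4% G and C and holds 1 match to CACCTG, searched on both strands, which 17.5% of 35116 promoter stretches of the same length hold. The CNTN1 stretch is 47.2% G and C and holds no match to it. Searched in the same way, neither holds the ETS core CCGGAA, present in 14.5% of stretches, or the TATA box TATAAA, present in 10.7%. A match describes letters only and shows no binding.

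RAB25 stood at 6.04, 6.31, 6.21 and 6.13 in parental replicates 1 to 4, at 9.22, 9.22 and 9.09 in the liver arrays and at 10.12, 10.16 and 10.23 in the lung arrays. The 3 groups did not overlap, and parental replicate 4 lay among the other parental arrays. Lung minus liver was 0.99 (SE 0.08, limma adjusted p = 0.000175), a 1.99-fold difference, with a parental 4 difference of -0.06. Both derivatives were above the parental mean, the liver arrays by 3.01 and the lung arrays by 3.996, so the difference between organs was smaller than the rise in either. All 5 rows of the gene were called higher, by 0.83 to 1.09. With the set term the difference was 1.05 (SE 0.13, limma adjusted p = 0.0209). That second call was lost without liver replicate 1 (limma adjusted p = 0.0508), liver replicate 2 (0.0701), liver replicate 3 (0.0646) or parental replicate 3 (0.0841) and with the brightest row alone (0.309), while the value stayed between 0.80 and 1.17 under every alternative tried.

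CNTN1 stood at 5.42, 5.38, 5.52 and 5.37 in the parental arrays, at 7.11, 7.01 and 7.12 in the liver arrays and at 5.82, 5.76 and 5.82 in the lung arrays. The liver arrays stood apart, and the lung arrays lay between them and the parental arrays, 0.38 above the parental mean against 1.65 for liver. Lung minus liver was -1.28 (SE 0.07, limma adjusted p = 3.17e-06), a 2.43-fold difference, with a parental 4 difference of -0.07. With the set term it was -1.21 (SE 0.10, limma adjusted p = 0.00236), called in every fit that left out 1 array. The mean level of CNTN1 over all arrays, 6.03, lay below the lower quartile of all genes (6.89), while RAB25 stood at 8.27. The filter on dim genes therefore leaves CNTN1 out. The rows of CNTN1 were uneven: all 26 pointed lower in lung, from -4.22 to -0.01, and 10 of them were called. The brightest row, at a mean level of 9.19, was the one with -0.01 (limma adjusted p = 0.96), so the call ends when that row stands for the gene, and with the median of rows the set term fit gave an adjusted p of 0.44.

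**Figure D2:**
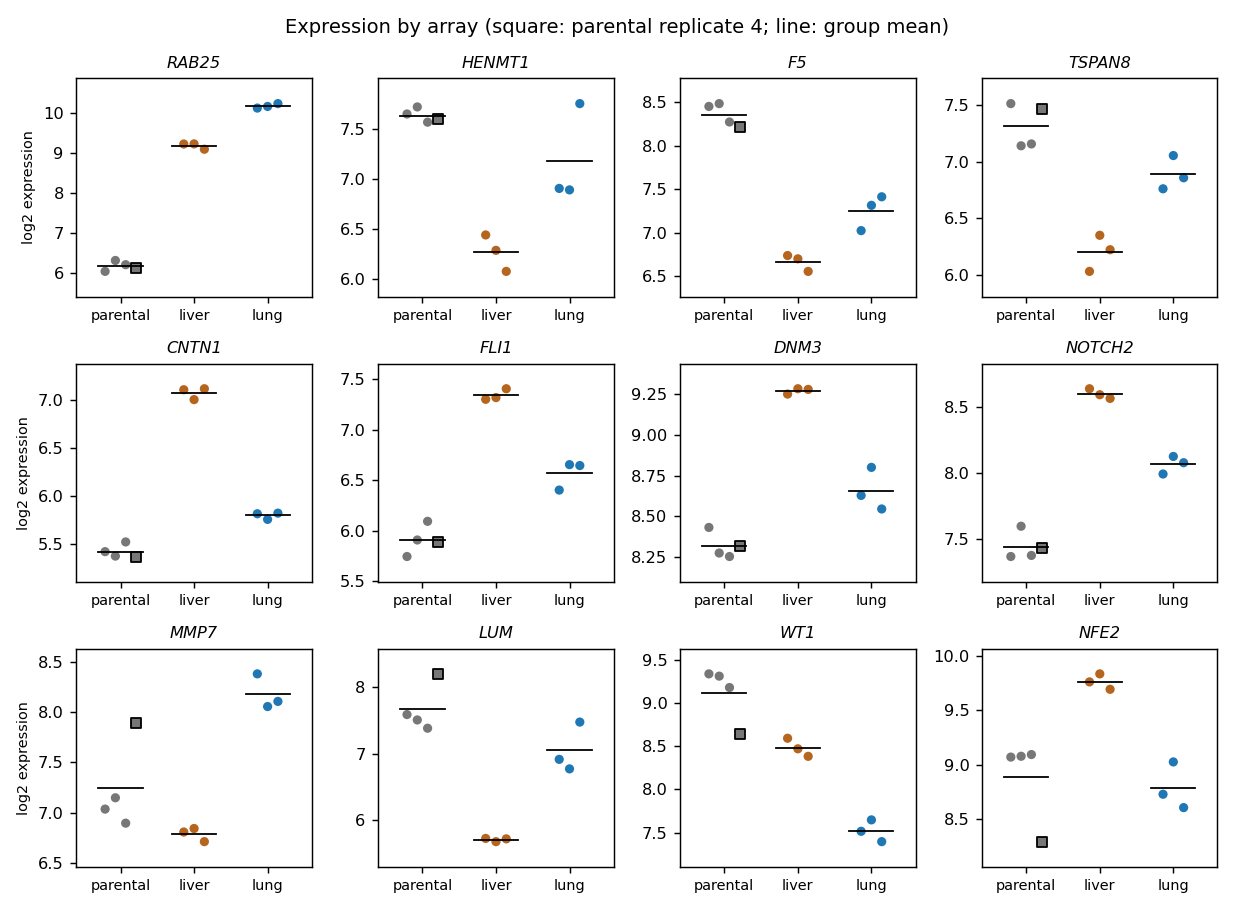
Log2 expression (vertical, scale differs by panel) of 12 genes in each parental (grey), liver (orange) and lung (blue) array, with group means as lines and parental replicate 4 as an outlined square. In RAB25, CNTN1, FLI1 and NOTCH2 the square lies among the other parental arrays, while in MMP7, LUM, WT1 and NFE2 it is shifted from the other parental arrays in the direction in which lung differs from liver.

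Including these, 231 called genes (109 higher and 122 lower in lung) had a parental 4 difference under 0.25 times their own or of the opposite sign. Most genes named next are among the largest of them with at least 3 rows, a selection made after the values were seen, and CD44, ROR1 and TSPAN8 come from the gene lists. None of these passed the threshold in the set term fit. That fit subtracts the parental 4 difference, which was small in the selected genes by choice, so their values there had to stay similar in size. They were -0.75 for FLI1 (SE 0.17, against 0.10 without the term), -0.52 for NOTCH2, -0.61 for DNM3, -0.52 for COLGALT2 and 0.62 for IGF2.

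Among the genes higher in liver derivatives, several encode regulators and receptors. FLI1, an ETS family transcription factor of blood and endothelial cells, stood at 5.74, 5.91, 6.09 and 5.89 in the parental arrays, at 7.30, 7.32 and 7.40 in liver and at 6.40, 6.65 and 6.64 in lung. The groups did not overlap and lung lay between parental and liver, so that lung minus liver was -0.77 (SE 0.10, limma adjusted p = 0.00478) with a parental 4 difference of -0.02. NOTCH2, a receptor that releases a transcriptional activator when a neighbouring cell presents its ligand, followed the same order, at 7.37 to 7.60 in parental, 8.63, 8.59 and 8.56 in liver and 7.99, 8.12 and 8.08 in lung. Its difference was -0.53 (SE 0.07, limma adjusted p = 0.00613; parental 4 difference -0.01). Its rows disagreed, with 10 of 33 called lower and 1 higher, and the brightest row gave 1.37 in the other direction beside a parental 4 difference of 1.49.

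DNM3, a dynamin that pinches vesicles from membranes, was at 8.25 to 8.43 in parental arrays, 9.25, 9.28 and 9.28 in liver and 8.63, 8.80 and 8.54 in lung. It fell by 0.61 in lung against liver (SE 0.08, limma adjusted p = 0.00478), with 12 of 23 rows called lower. NELL2, a secreted glycoprotein first known from the nervous system, was at 8.29, 8.24 and 8.22 in liver and at 6.68, 6.83 and 7.72 in lung, above parental levels of 6.13 to 6.49. Lung replicate 3 lay apart from the other lung arrays. The difference was -1.17 (SE 0.21, limma adjusted p = 0.0121), its parental 4 difference was 0.28, and the call was lost without liver replicate 2 (adjusted p = 0.0552). The brightest row of NELL2 rose by 1.33 instead, beside a parental 4 difference of 1.31.

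COLGALT2, an enzyme that adds galactose to collagen, lay above the parental arrays in liver and below them in lung. It stood at 9.75 to 9.87 in parental arrays, at 10.20, 10.20 and 10.16 in liver and at 9.58, 9.67 and 9.69 in lung. That is 0.37 above the parental mean in liver and -0.17 in lung, and lung minus liver was -0.54 (SE 0.06, limma adjusted p = 0.00393; parental 4 difference -0.02). OLFML3, a secreted olfactomedin-like protein, was at 7.10, 6.98 and 7.01 in liver and 6.45, 6.28 and 6.56 in lung, below parental levels of 6.74 to 6.90. Its brightest row gave 0.11.

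ROR1 and CD44 were below the parental level in both derivatives and lower in lung than in liver. ROR1 is a receptor of the Wnt5a branch of Wnt signalling, and CD44 is a hyaluronan receptor and a marker of colon crypt and tumour stem cells. CD44 was at 7.79 to 7.98 in parental arrays, 7.11, 7.16 and 7.39 in liver and 6.62, 6.55 and 6.99 in lung, with no overlap. Lung minus liver was -0.50 for CD44 (SE 0.12, limma adjusted p = 0.0205) and -0.42 for ROR1 (SE 0.08, limma adjusted p = 0.0121), with parental 4 differences of 0.09 and 0.03. The CD44 call was lost without liver replicate 2, liver replicate 3 or lung replicate 1 (adjusted p up to 0.0724). The brightest row of ROR1 gave 1.68, beside a parental 4 difference of 1.42.

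Genes higher in lung with a small parental 4 difference included secreted and surface proteins. IGF2, a growth factor that acts through the IGF1 receptor, was at 7.66, 7.74, 7.93 and 7.77 in parental arrays, 8.36, 8.30 and 8.29 in liver and 8.83, 8.94 and 9.01 in lung. The 3 groups did not overlap and rose in that order, with lung minus liver 0.61 (SE 0.08, limma adjusted p = 0.00507) and a parental 4 difference of -0.0042. It has 3 rows, of which 2 were called, and the brightest gave -0.18. VSIR, an immune checkpoint protein, and IGSF3, an immunoglobulin superfamily membrane protein, were near parental levels in liver and higher in lung. VSIR stood at 8.34 to 8.52 in parental arrays, 8.47, 8.52 and 8.50 in liver and 9.01, 8.98 and 9.06 in lung (difference 0.52, SE 0.06, limma adjusted p = 0.00478). IGSF3 stood at 7.88 to 7.97, then at 7.90, 7.83 and 7.80 in liver and 8.44, 8.36 and 8.24 in lung (difference 0.50, SE 0.07, limma adjusted p = 0.00573), though its brightest row gave 0.03.

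TSPAN8, F5 and AKR1C3 were below the parental level in both derivatives and less so in lung. TSPAN8, a tetraspanin of colon and other digestive tumours that organises adhesion receptors, was at 7.14 to 7.51 in parental arrays, 6.03, 6.35 and 6.22 in liver and 6.76, 7.05 and 6.86 in lung. Lung minus liver was 0.69 (SE 0.13, limma adjusted p = 0.0121), all 9 rows pointed higher and 4 were called, and the parental 4 difference of 0.20 was just over 0.25 times as large. F5, coagulation factor V, was at 8.22 to 8.48 in parental arrays, 6.74, 6.70 and 6.56 in liver and 7.02, 7.31 and 7.41 in lung. It differed by 0.59 (SE 0.11, limma adjusted p = 0.0122), with 10 of 25 rows called and a parental 4 difference of -0.18, and was lost without liver replicate 2 (adjusted p = 0.0552). The steroid and prostaglandin reductase AKR1C3 went from 10.61 to 10.85 in parental arrays to 8.84, 8.86 and 8.83 in liver and 9.31, 9.06 and 9.95 in lung, a difference of 0.60 (SE 0.17, limma adjusted p = 0.0361) that was lost in 5 of the fits leaving out 1 array. AKR1C family members are near-identical, so the separate value of AKR1C3 is uncertain. HENMT1, a methyltransferase of small RNAs, was at 6.44, 6.29 and 6.08 in liver against 6.90, 6.89 and 7.75 in lung, where replicate 3 lay above the parental levels of 7.56 to 7.72 and the others below them. Lung minus parental was -0.45 and not called (limma adjusted p = 0.0799). Its lung minus liver difference of 0.91 (SE 0.19, limma adjusted p = 0.0156) was lost without liver replicate 2 or 3 (adjusted p up to 0.061) and its brightest row gave -0.28.

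The genes described next were chosen among the 486 whose parental 4 difference was at least 0.5 times as large, so that by choice parental replicate 4 differed from parental replicates 1 to 3 in the direction in which lung differed from liver. MMP7 (matrilysin), a protease of colon tumours and a Wnt target, was at 7.04, 7.15 and 6.90 in parental replicates 1 to 3 and at 7.89 in replicate 4. It was at 6.81, 6.84 and 6.71 in liver and at 8.38, 8.06 and 8.11 in lung. The derivatives did not overlap, with a difference of 1.39 (SE 0.21, limma adjusted p = 0.00713), beside a parental 4 difference of 0.87. Less that difference 0.53 remained (limma adjusted p = 0.374 with the set term). LUM, a small proteoglycan that spaces collagen fibrils, was at 7.59, 7.51, 7.38 and 8.20 in the parental arrays, 5.72, 5.68 and 5.72 in liver and 6.92, 6.77 and 7.48 in lung. It differed by 1.35 (SE 0.21, limma adjusted p = 0.00885) beside a parental 4 difference of 0.71.

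The other rises of this kind were SPRR2D, ZNF487, DDIT4 and ACSL5. SPRR2D, a cornified envelope protein, was at 6.10 to 6.79 in parental replicates 1 to 3, 7.48 in replicate 4, 6.04 to 6.29 in liver and 7.54 to 7.62 in lung, a difference of 1.38 beside a parental 4 difference of 1.09. SPRR2 genes can share probes. DDIT4, an inhibitor of mTORC1 induced by hypoxia and stress, was at 10.27 in parental replicate 4 against 9.16 to 9.44 in the others, and at 10.04, 9.61 and 10.83 in lung against 9.01 to 9.20 in liver. Its difference was 1.04 (SE 0.31, limma adjusted p = 0.0373) and its parental 4 difference 0.95. For ACSL5, which activates fatty acids, the values were 0.90 and 0.90, and for the zinc finger gene ZNF487 they were 1.37 and 0.81. The calls of DDIT4 and ACSL5 were each lost in 5 of the fits leaving out 1 array (adjusted p up to 0.104), and that of SPRR2D without liver replicate 2 (adjusted p = 0.0605).

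The falls included developmental transcription factors. WT1 (Wilms tumour 1) was at 9.34, 9.31 and 9.18 in parental replicates 1 to 3, 8.64 in replicate 4, 8.59, 8.47 and 8.38 in liver and 7.52, 7.65 and 7.40 in lung. The derivatives did not overlap and differed by -0.96 (SE 0.16, limma adjusted p = 0.0103) beside a parental 4 difference of -0.64. NFE2, an erythroid and megakaryocyte factor, was at 9.76, 9.84 and 9.69 in liver and 8.73, 9.03 and 8.61 in lung (difference -0.98, SE 0.19, limma adjusted p = 0.0134), with parental replicate 4 at 8.30 against 9.07 to 9.10. HOXC4, a homeobox gene of the trunk, was at 9.09, 9.17 and 9.15 in liver and 8.37, 8.47 and 8.11 in lung. Parental replicate 4 held 8.17 against 9.08 to 9.16 in the other parental arrays, so its parental 4 difference of -0.95 exceeded its lung minus liver difference of -0.82 and the set term turned the sign (0.14). CCND2, the D-type cyclin 2, differed by -0.90 beside -0.81, NBPF1 by -1.37 beside -0.98 and ANKRD36BP1 by -1.11 beside -0.59. NBPF copies are near-identical and their separate values uncertain. Without liver replicate 2 none of the 6 genes was called (adjusted p of 0.0501 for WT1, 0.0582 for NFE2, 0.0546 for ANKRD36BP1 and 0.0552 for NBPF1), and the CCND2 and HOXC4 calls were lost in 5 fits each.

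CAMK2N1 and NCAM1 were called in the fit with the set term and not in the fit without it. CAMK2N1, which blocks the kinase CaMKII, was at 9.58, 9.63 and 9.63 in parental replicates 1 to 3 and 8.86 in replicate 4, with 7.72, 7.71 and 7.54 in liver and 7.79, 8.03 and 8.02 in lung. Lung and liver differed by 0.29 (limma adjusted p = 0.262), and the set term value of 1.04 (SE 0.14, limma adjusted p = 0.0209) came from the parental 4 difference of -0.76. NCAM1, a neural cell adhesion molecule, was at 8.61 to 8.72 in parental replicates 1 to 3 and 7.65 in replicate 4, with 6.85 to 6.89 in liver and 6.64 to 6.76 in lung. Its lung minus liver difference was -0.18 (limma adjusted p = 0.579) and turned to 0.82 with the set term (SE 0.10, limma adjusted p = 0.0209). Both calls were lost without any of the liver arrays (adjusted p of 0.0508 to 0.0701) and without parental replicate 3 (0.0841 and 0.0793), and without parental replicate 1 (0.0714 and 0.0506). That of CAMK2N1 was also lost without parental replicate 2 (0.0616), that of NCAM1 with the median of rows (0.107), and both with the brightest row (0.155 and 0.568). In the fit without parental replicate 4, which needs no set term, both were called at differences of 0.29 and -0.18, for NCAM1 the sign opposite to that with the set term. CAMK2N1 was also called with the derivative arrays alone and with the replicate number as a block.

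Seen from the parental line, whose arrays both contrasts share, 1420 genes were called in lung derivatives (30.1%) and 369 in liver derivatives (7.83%). Both counts come from the fit without the array set term. That term places the lung arrays with parental replicate 4 and the liver arrays with the other parental arrays. A shift between sets would thus enter the lung count more, and its part was not tested. The counts therefore do not rank the derivatives by distance from the parental line. The keratin KRT5 of basal epithelium was above the parental level in both derivatives. It stood at 6.96 to 7.39 in parental arrays, 9.56, 9.53 and 9.45 in liver and 9.24, 9.40 and 9.95 in lung. The groups of derivatives overlapped, and lung minus liver was 0.02 (SE 0.16, limma adjusted p = 0.954). KRT5 was picked with its values known.

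Of 9 markers of colon epithelium 6 were above the median level of all genes and TSPAN8 was below the lower quartile. KRT8, the main type II keratin of simple epithelia, stood between 12.71 and 12.91 in all 10 arrays with the lowest and the highest value both in lung, and did not pass the test (0.05, limma adjusted p = 0.63). KRT18, its partner, was at 11.70 to 11.78 in liver and 11.50 to 11.76 in lung (-0.12, limma adjusted p = 0.342). The tight junction protein F11R (-0.06, limma adjusted p = 0.49), the receptor kinases ERBB3 (0.14, 0.366) and EPHB2 (0.09, 0.398) and the mucin MUC2 (-0.12, 0.276) did not pass either. Besides TSPAN8 (0.69) and LGR5 (-0.46), ELF3 was called. ELF3, an epithelial ETS factor, was higher in lung by 0.26 (limma adjusted p = 0.0465) beside a parental 4 difference of 0.20, a call lost in 8 of the fits leaving out 1 array.

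Over the wider epithelial list 3 of 22 genes were higher and 1 lower, 18.2% called against 19.9% of all genes, with a median of -0.02, equal to the median of all genes tested (-0.02). The rises were RAB25, ELF3 and the related factor EHF (0.26, limma adjusted p = 0.0344; parental 4 difference -0.14), and the fall was SCNN1A, a subunit of the epithelial sodium channel. SCNN1A was at 11.17, 11.19 and 11.15 in liver and 10.79, 10.91 and 10.78 in lung, so the groups did not overlap. It differed by -0.35 (SE 0.06, limma adjusted p = 0.0121), with 7 of 14 rows lower and a parental 4 difference of -0.08. Of 27 keratins 2 were higher and 4 lower (22.2%), among them KRT80 (-0.43, SE 0.08, limma adjusted p = 0.0131; 6 of 14 rows), and of 13 mesenchymal genes NEXN, an actin filament protein, was lower (-0.43; 7.69%). Without liver replicate 2 RAB25 was the epithelial gene still called, and no keratin was; the SCNN1A and KRT80 calls then had adjusted p of 0.0566 and 0.0555.

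**Figure D3:**
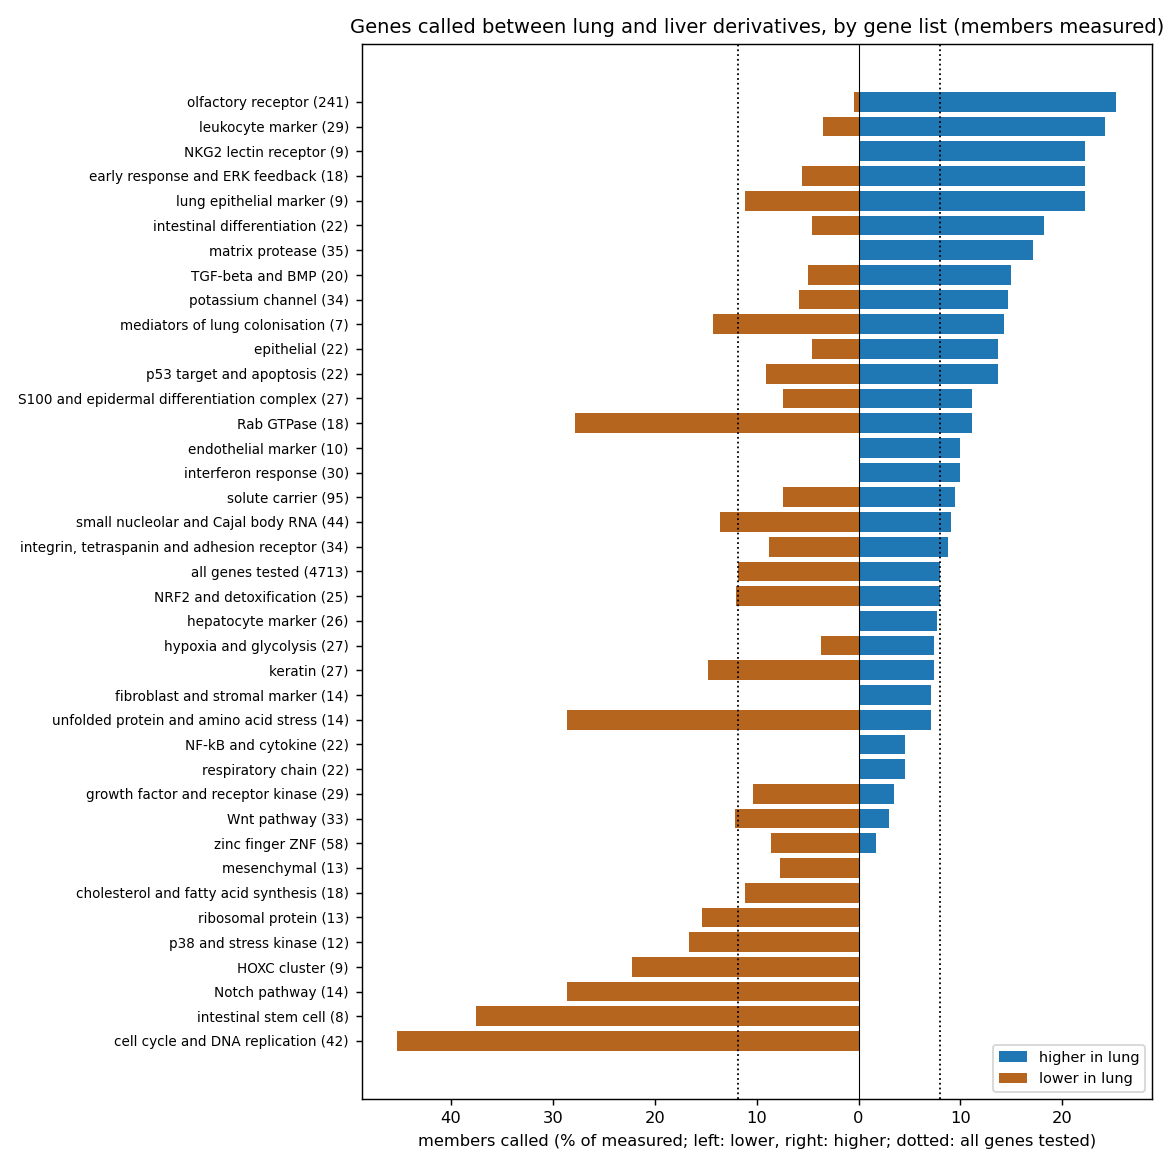
Share of the measured members of each of 38 gene lists called higher (blue, right) or lower (orange, left) in lung against liver derivatives, with the number measured in parentheses and dotted lines at the shares of all genes tested. The cell cycle list reaches farthest to the left, with 45.2% of its members lower, and the olfactory receptor list farthest to the right.

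Genes of the cell cycle and DNA replication were lower in lung derivatives. Of 42 measured, 19 were called lower (45.2%, against 11.9% of all genes) and 0 higher, where limma's unadjusted p was under 0.05 for 24 lower and 0 higher, and 40 had a lower mean in lung. The list's median was -0.20 beside a parental 4 median of -0.08. These are bright genes, at a median level of 10.44. Of all 1178 genes in the highest quartile of level 283 were called lower and 33 higher, with a median difference of -0.12. As the mean over the list, the lung arrays stood at 10.32 to 10.39, below the liver arrays at 10.51 to 10.60 and the parental arrays at 10.51 to 10.66. CENPF, a kinetochore protein of mitosis, was at 10.80, 10.97 and 11.07 in liver and 10.21, 10.30 and 10.23 in lung, with parental replicate 4 at 10.60 below the other parental arrays (10.81 to 10.99). It differed by -0.70 (SE 0.10, limma adjusted p = 0.00661), all 21 rows pointed lower and 13 were called, and it kept the call when any 1 array was left out.

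ASPM, a spindle pole protein, was at 10.39, 10.59 and 10.60 in liver and 10.036, 10.001 and 9.943 in lung, a difference of -0.53 (SE 0.08, limma adjusted p = 0.00793; parental 4 difference -0.12). The kinesin KIF20B differed by -0.65 beside -0.44, the replication checkpoint kinase CHEK1 by -0.38 beside -0.10 and the proliferation antigen MKI67 by -0.31 beside -0.10. Of the 19 genes, 13 had a parental 4 difference at least 0.5 times as large and 3 a difference under 0.25 times. The number called lower was 10 after quantile normalization, 12 after median centring, 10 with the median of rows and 6, with 1 higher, with the brightest row. It was 8 without liver replicate 1, 1 without liver replicate 2, 2 without liver replicate 3, 4 without lung replicate 1 and 9 without lung replicate 3.

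**Figure D4:**
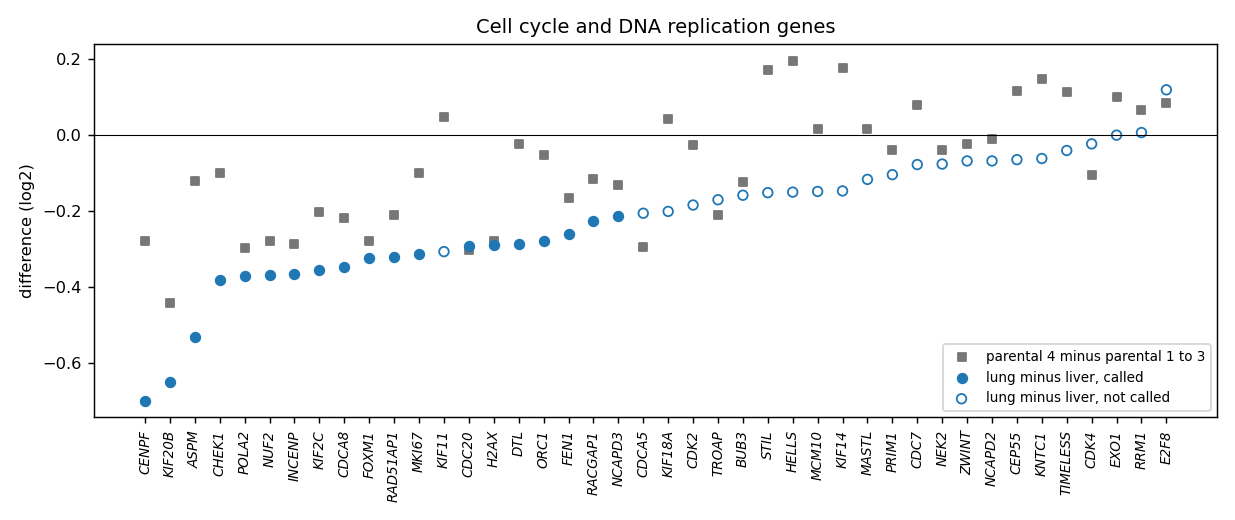
Lung minus liver difference (blue circles, filled where called) and parental 4 difference (grey squares) in log2 units for each of the 42 cell cycle and DNA replication genes, ordered by lung minus liver. The 19 filled circles all lie below 0, and the parental 4 squares of these genes also lie below 0.

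Of the intestinal stem cell genes 37.5% were called, of the Notch genes 28.6% and of the Wnt genes 15.2%, against 19.9% of all genes. Of 8 intestinal stem cell genes 3 were lower: CD44, LGR5 and the Polycomb protein BMI1 (-0.33, with 0.21 in its brightest row). LGR5, the R-spondin receptor of crypt stem cells, was at 9.45 to 9.74 in parental arrays, 8.57, 8.86 and 8.97 in liver and 8.38, 8.50 and 8.14 in lung. It differed by -0.46 (SE 0.12, limma adjusted p = 0.0269; parental 4 difference -0.22), while its relative LGR4 was higher by 0.51 (SE 0.10, limma adjusted p = 0.0134; parental 4 difference 0.23). Of 33 Wnt pathway genes LGR4 was higher and 4 were lower (CCND2, LGR5, the ligand RSPO1 and the antagonist SFRP5). Of 14 Notch genes 4 were lower: NOTCH2, the repressor SPEN (-0.37, SE 0.06, limma adjusted p = 0.0103), PSEN2 of the gamma-secretase that cuts the receptor (-0.25, limma adjusted p = 0.0242) and the target HES2 (-0.28). In 3 of them the parental 4 difference was under 0.25 times as large. NOTCH2 alone of these genes was called without liver replicate 2; LGR4 then had an adjusted p of 0.0566 and SPEN of 0.0555.

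Of 35 matrix proteases 17.1% were called, against 19.9% of all genes: 6 were higher in lung, against 8.02% of all genes, and 0 lower in the limma fit (12 and 1 at an unadjusted p under 0.05), with a median of 0.11. With the median of rows 3 were higher and 1 lower, with the brightest row 12 and 1, and 14 of the 35 were below the lower quartile of level. After MMP7 the largest was ADAMTS4, an aggrecan-cleaving protease, at 7.12, 7.12 and 6.90 in liver and 7.71, 7.51 and 7.82 in lung. It differed by 0.63 (SE 0.10, limma adjusted p = 0.0101; parental 4 difference 0.23), and with MMP7 it kept the call without liver replicate 2, when 2 of 35 were called, as they were without lung replicate 1. The others were the lysosomal protease CTSS (0.36), the urokinase PLAU (0.44), MMP13 (0.26) and MMP27 (0.36), all with smaller differences than these. Among 34 adhesion receptors 3 were higher (TSPAN8, TSPAN31 and VCAM1) and 3 lower (CNTN1, CD44 and CADM1, a cell adhesion molecule of epithelia at -0.43). Of 19 listed mediators of lung colonisation known from breast cancer 7 were measured, of which VCAM1 was higher by 0.22 (limma adjusted p = 0.0464) and CD44 lower. None of the 10 rows of VCAM1 was called, and its gene call was lost in 8 of the fits leaving out 1 array. The called share was 17.6% of the adhesion receptors and 28.6% of the 7 measured mediators, against 19.9% of all genes.

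Growth factor and response genes moved both ways. Of growth factors and receptor kinases 13.8% were called and of TGF-beta and BMP genes 20%. Of early response genes 27.8% were called and of p38 and stress kinase genes 16.7%, against 19.9% of all genes. Of 29 growth factors and receptor kinases IGF2 was higher and ROR1, FGF3 (-0.34) and KITLG (-0.45), the ligand of KIT, were lower. Of 20 TGF-beta and BMP genes the ligands LEFTY2 (0.67) and TGFB2 (0.67) and the co-receptor TGFBR3 (0.31) were higher and GDF11 (-0.61) was lower. TGFBR3 had a parental 4 difference of 0.04, while LEFTY2 and TGFB2 had 0.57 and 0.68. Of 18 early response genes EGR2 (0.67), the phosphatase DUSP5 (0.59, with -0.23 in its brightest row), BTG2 (0.34) and ATF3 (0.29) were higher and FOSL1 (-0.31) lower, and 4 of the 5 had a parental 4 difference at least 0.5 times as large. For GDF11, FOSL1 and TGFB2 the set term turned the sign (0.13, 0.04 and -0.0024). Of 12 p38 and stress kinase genes MAPKAPK5 (-0.27) and MAP3K12 (-0.20, with 0.08 in its brightest row) were lower. IGF2 and ROR1 were the members of these lists still called without liver replicate 2.

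Against 19.9% of all genes, 11.1% of the hypoxia and glycolysis list, 4.55% of the respiratory chain list, 11.1% of the sterol and fatty acid list, 20% of the NRF2 list and 35.7% of the unfolded protein and amino acid stress list were called. PGAM1, phosphoglycerate mutase of glycolysis, was at 10.51, 10.53 and 10.44 in liver and 11.05, 10.99 and 11.02 in lung, with parental arrays at 10.31 to 10.60. The derivatives did not overlap and differed by 0.53 (SE 0.08, limma adjusted p = 0.00661; parental 4 difference 0.20). All 4 rows were called, by 0.52 to 0.54, and the call held when any 1 array was left out. In the hypoxia and glycolysis list of 27 the others called were DDIT4 and the oxygen sensor EGLN1 (-0.24). Of 22 respiratory chain genes SDHC of complex II was higher (0.56, with -0.12 in its brightest row), and of 18 sterol and fatty acid synthesis genes IDI1 (-0.51) and SC5D (-0.43) were lower. With the median of rows, taken on the levels in each array, IDI1 gave 0.98, though 8 of its 9 rows pointed lower. Of these rows 5 were called lower and 1 higher. Of 25 NRF2 and detoxification genes AKR1C3 and the exporter ABCC2 (0.46) were higher and EPHX1 (-0.53), GSTO1 (-0.34) and MGST1 (-0.27) lower. All 5 called genes of 14 in the unfolded protein and amino acid stress list had a parental 4 difference at least 0.5 times as large: HYOU1, PHGDH, ALDH18A1 and SLC3A2 lower and ATF3 higher. Of these metabolic genes PGAM1 alone was called without liver replicate 2.

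Of the interferon genes 10% were called, and of the p53 and apoptosis genes 22.7%, against 19.9% of all genes. OAS1, which makes the activator of RNase L, was at 8.51, 8.59 and 8.45 in liver and 9.19, 8.93 and 9.53 in lung, a difference of 0.70 (SE 0.15, limma adjusted p = 0.0156) beside a parental 4 difference of 0.25. With IFI44L (0.38) and IFIT5 (0.28, with -0.17 in its brightest row) it made 3 of 30 interferon genes higher, with 0 lower in the limma fit (7 and 3 at an unadjusted p under 0.05). Of 22 NF-kB and cytokine genes TNFSF4 was higher (0.50), which makes 4.55% called. Of 22 p53 target and apoptosis genes, with a median of 0.0003, 3 were higher: FAS, the death receptor (0.41), BTG2 and BCL2L15 (0.45, with -0.05 in its brightest row). The p53 inhibitors MDM2 (-0.38) and MDM4 (-0.36) were lower. The parental 4 difference was at least 0.5 times as large in 4 of these 5, and 0.11, the opposite sign, in MDM4. None of the interferon, cytokine or p53 and apoptosis genes was called without liver replicate 2.

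Of 18 Rab GTPases and partners RAB25 and RAB29 were higher and 5 lower (RAB21 at -0.57, RAB42, RAB11FIP2, RAB18 and RAB30), 38.9% in all against 19.9% of all genes. Of 27 S100 and epidermal differentiation genes SPRR2D, SPRR1A (0.54) and SPRR1B (0.47) were higher and S100A1 (-0.62) and FLG (-0.29) lower. Of 9 HOXC cluster genes HOXC4 and HOXC5 (-0.57) were lower. Among 44 small nucleolar and Cajal body RNAs, which guide RNA modification and have 1 row each, 4 were higher and 6 lower, and in 8 of the 10 the parental 4 difference was at least 0.5 times as large. SNORD79, the largest without that, was at 7.87, 8.32 and 8.46 in liver and 7.32, 7.31 and 7.15 in lung (-0.95, SE 0.15, limma adjusted p = 0.00932; parental 4 difference -0.31). Of 95 solute carriers 9 were higher and 7 lower, of 34 potassium channels 5 and 2, of 58 ZNF genes 1 and 5, of 13 ribosomal proteins 0 and 2, and of 22 intestinal differentiation genes 4 and 1, the last led by LYZ (0.67, beside a parental 4 difference of 0.62). Called shares in these lists, from the S100 genes on, lay between 10.3% (ZNF genes) and 22.7% (small nucleolar RNAs and intestinal differentiation). Without liver replicate 2 a single gene each was called in the Rab (RAB25) and ZNF (ZNF487) lists and none in the other lists of this paragraph.

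The direction of a difference followed the level of the gene. In the lowest quartile of mean level (3.63 to 6.89) 185 genes were called higher in lung and 23 lower, in the second 106 and 58, in the third 54 and 195, and in the highest (up to 13.45) 33 and 283. The median lung minus liver difference went from 0.13 in the lowest quartile to -0.12 in the highest, and the parental 4 difference from 0.06 to -0.07 over the same genes. After quantile normalization 192 and 23 were called in the lowest quartile and 58 and 158 in the highest. Without liver replicate 2 the medians were 0.13 and -0.12 but 2 and 4 genes were called in the lowest and 2 and 6 in the highest. Olfactory receptors, best known from sensory neurons of the nose, were the largest dim family: 61 of 241 were called higher and 1 lower (25.7% in all, against 19.9% of all genes), with a median of 0.30 beside a parental 4 median of 0.15. Of the 241, 197 lay below the lower quartile of level, and 0 were called without liver replicate 2, 8 without lung replicate 1, 16 without liver replicate 1, 20 without liver replicate 3 and 29 without lung replicate 3. Of the 44 that were not below it, 15 were higher and 1 lower when dim genes were left out, with a median of 0.28, beside a median of 0.01 over all genes of the second quartile. Most of the family had fewer than 3 rows. When such genes were left out, 20 olfactory receptors remained, of which 2 were higher and 0 lower, with a median of 0.18. The part of the low level in these differences was not tested.

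**Figure D5:**
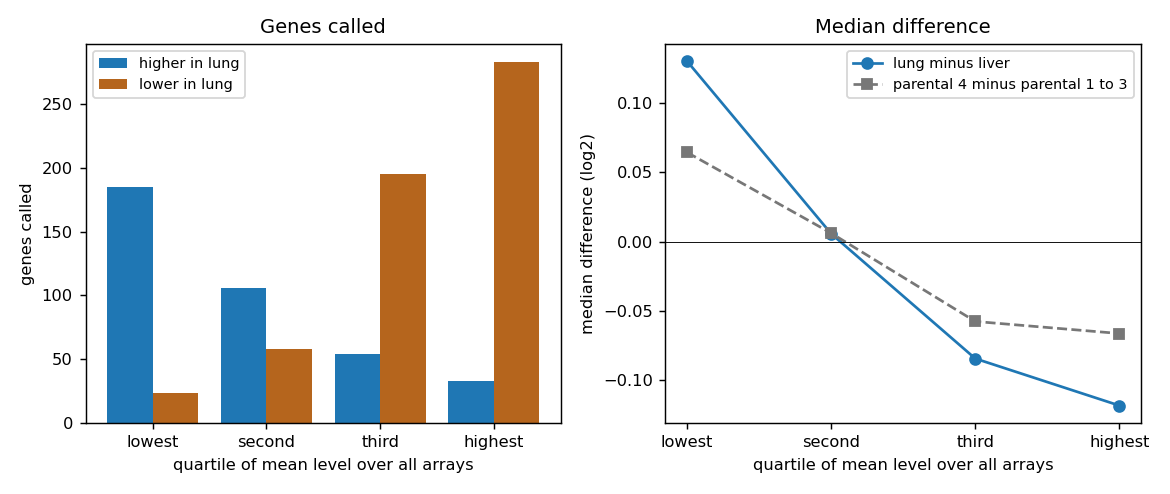
Left, number of genes called higher (blue) or lower (orange) in lung against liver derivatives in each quartile of mean level over all 10 arrays; right, median difference (log2) of the same genes for lung minus liver (blue) and for parental replicate 4 minus parental replicates 1 to 3 (grey, dashed). Both medians fall from the lowest to the highest quartile, from 0.13 to -0.12 and from 0.06 to -0.07.

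Called shares were 7.69% of hepatocyte, 33.3% of lung epithelial, 7.14% of stromal, 10% of endothelial, 27.6% of leukocyte and 22.2% of lectin receptor genes. Over all genes the share was 19.9%. Hepatocyte markers were dim in both derivatives. None of 26 hepatocyte genes was above the median level of all genes and 18 were below the lower quartile; the mean over the list ran from 6.31 to 6.37 in liver arrays and from 6.38 to 6.46 in lung arrays. APCS (0.34) and SLCO1B1 (0.32, with -0.51 in its brightest row) were called higher in lung, not in liver. Of 9 lung epithelial genes PDPN (0.34) and the surfactant gene SFTPA1 (0.40) were higher and SCNN1A lower in lung, and the list stood at 8.24 to 8.40 in lung, 8.15 to 8.17 in liver and 8.06 to 8.29 in parental arrays. Of these 9 genes 3 were above the median level of all genes and 0 below the lower quartile. LUM was higher among 14 stromal genes and F5 among 10 genes listed as endothelial, and in neither list was a gene above the median level. Coagulation factor F5 was highest in the parental line (8.22 to 8.48). LUM also had its highest group mean there (7.67, against 7.05 in lung and 5.71 in liver). Their levels here thus do not by themselves mark endothelial or stromal cells. Of 29 leukocyte genes 7 were higher and 1 lower (CD4, -0.28), at 7.06 to 7.13 in lung against 6.89 to 6.97 in liver arrays. In that list 15 genes were below the lower quartile and the brightest was the kinase LCK at 10.75, which was not called. Over all genes of the lowest quartile of level 185 were called higher and 23 lower. Besides, 2 of 9 lectin receptor genes, all below the lower quartile, were higher: KLRB1 (0.45) and KLRF1 (0.66, beside a parental 4 difference of 0.66). The hosts were mice and the array is of human probes, and the part of host RNA in these values was not tested.

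Along the chromosomes the share of called genes was 19.4% on chromosome 1, 21% on 10, 19.1% on 11 and 20.9% on 12. In windows of 15 neighbouring genes the median lung minus liver difference lay between -0.16 and 0.22 at the 5th and 95th percentiles of 4604 windows. The highest window, from OR4C11 to OR10AG1 on chromosome 11, had a median of 0.47 with 9 of 15 genes called higher, at a median level of 5.51 and beside a parental 4 median of 0.15. The lowest, from HNRNPU to ZNF496 on chromosome 1, had -0.32 with 7 genes lower and 2 higher, beside -0.16. The windows were picked as the extremes, so their values are a description.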

How the data were processed

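RNA of SW620 was measured on 4 parental, 3 liver and 3 lung derivative arrays. The deposited log2 expression values were produced by the authors with RMA (background correction, quantile normalization, probe summary) and oligo, per the submitters' processing notes. Neither a version nor a summary level is named there. They lay between 2.55 and 13.99, with array medians of 8.52 to 8.60, and no 2 arrays were identical. The table has 65535 rows, a spreadsheet limit, and may be incomplete. Rows with 1 symbol in the platform annotation were used (54806 rows), 2143 with several and 8586 with none were left out, and 4727 symbols were brought to 4713 genes with a RefSeq gene table (GRCh38.p14): 4102 were current, 601 were updated and 24 kept. Genes had 1 to 107 rows (median 10), of which 559 had fewer than 3. Genes outside chromosomes 1, 10, 11 and 12 number 29, and 24 have no chromosome, so other parts of the genome are not analysed here. For the array annotation, no build was found in the labels. RMA places arrays on a common distribution, so a change in total RNA content cannot be seen. The number of arrays limits the precision.

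Gene means were fitted with limma 3.58.1 (R 4.3.3), 1 coefficient per group over all 10 arrays, two-sided, with Benjamini-Hochberg adjustment over 4713 genes and a threshold of 0.05. The second fit added the array set (parental replicate 4 and lung, against the rest). Tables were handled in Python 3.11.15 with pandas 2.3.3. The fits were also run on simulated data, as a check of the code. The set shift simulated there did not depend on level, so that run does not test the calls made here. The members, the 38 gene lists and the array set were chosen with earlier results of these data known. Named genes were the 12 largest rises and falls with at least 3 rows called in both fits (2 genes met this), the 6 largest rises and 6 largest falls with a parental 4 difference of the same sign and at least 0.5 times the size, up to 3 called members per list, and 9 colon markers, 103 in all. With the largest genes whose parental 4 difference was under 0.25 times and those called in the second fit but not in the first, both added after the values were seen, 123 were named for the tables, of which 91 matched the promoter table. Other members of a list are given by count and value. Alternatives were quantile normalization, median centring, the brightest row, the median of rows, 2 filters, other moderation, derivative arrays alone, the replicate number as a block and leaving out each array.

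Same-numbered liver and lung arrays deviated from their group means with correlations of -0.03, 0.12 and 0.13 over genes, so the numbers were not taken as pairs.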

Additional observations from a re-analysis of the deposited data

Results flagged for a closer look

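Among the 123 named genes, the highest or lowest of the 4 parental arrays lay far from the other 3 in 12 (Dixon's test), where chance flags about 1 in 20 groups. In 10 of the 12 the array was parental replicate 4, but some genes were named by their parental 4 difference or by the set term fit, so this count is a description and is not set against chance. It was low in CAMK2N1 (8.86), EPHX1 (8.30), GDF11 (9.20), HOXC4 (8.17), HYOU1 (11.25), NCAM1 (7.65), NFE2 (8.30), SCNN1A (11.04) and the small nucleolar RNA SNORD38A (8.40), and high in the phosphatase DUSP5 (8.95). The others were PDPN in parental replicate 2 (6.86) and SLCO1B1 in parental replicate 1 (5.22). Groups of 3 were not tested.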

How the results depend on the processing

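The replicate block, with liver and lung numbers taken as pairs, called 1290 genes, but the numbers pair no samples by the data (liver replicate 1 correlated best with lung replicate 2, at 0.11). The 937 calls became 4 with the array set term and ranged from 31 to 1523 when 1 array was left out. The 4 calls of the set term fit became 20 with trend and robust moderation, 7 without dim genes and 7 without genes under 3 rows, and ranged from 1 to 22 when 1 array was left out. Counts otherwise lay within 1.5 times the main count. Signs reversed with the brightest row for BCL2L15 (-0.046), BMI1 (0.21), DUSP5 (-0.23), EPHB2 (-0.15), HENMT1 (-0.28), IFIT5 (-0.17), IGF2 (-0.18), KCNJ1 (-0.17), KRT8 (-0.22), LOC440570 (0.013), MAP3K12 (0.077), MUC2 (0.41), MYPN (-0.63), NCAM1 (0.042), NELL2 (1.33), NEXN (0.0006), NOTCH2 (1.37), OLFML3 (0.11), ROR1 (1.68), SDHC (-0.12), SLC2A13 (-0.85) and SLCO1B1 (-0.51). They reversed with the median of rows for F11R (0.070), IDI1 (0.98), MAPKAPK5 (0.0046) and RPL27A (0.0068), and with the array set term for FOSL1 (0.040), GDF11 (0.13), HOXC4 (0.14), HYOU1 (0.023), KLRF1 (-0.0021), KRT18 (0.034), KRT8 (-0.027) and NCAM1 (0.82). ERBB3, not called, ranged from -0.0018 to 0.21 with 1 array left out. The cause of these reversals was not tested.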
